A study of Mus musculus with 30 samples.

Results

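CD226, TIGIT and CD96 are receptors on T cells and natural killer (NK) cells. PVR (CD155) and Nectin-2 (CD112) are surface proteins of tumour, stromal and myeloid cells that act as ligands within this receptor set. The 5 genes that encode these receptors and ligands, Cd226, Tigit, Cd96, Pvr and Nectin2, were read from the raw count table by symbol, as 5 of 24557 gene entries. All 5 passed the low-count filter and were among the 15482 genes tested. The libraries came from MC38 tumours, grown from a mouse colon adenocarcinoma cell line under the flank skin of female C57BL/6J mice aged 10 weeks. Treatment was a single dose by vein at a tumour volume of 200 to 300 mm3. Tumours were taken 4 or 7 days after 0.39 mg/kg of mXTX301, a masked mouse surrogate of the cytokine IL-12. The other tumours had received 0.03 mg/kg of the unmasked positive control, or vehicle alone. Each of the 6 groups had 5 tumours from 5 mice, and all 3 treatments shared the same host strain, cell line and injection site. The masked and unmasked molecules were given at different doses, so their values stand side by side here without a comparison at matched dose.

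CD226 and TIGIT compete for the same ligands and pull in opposite directions. CD226 is an activating receptor that works with the integrin LFA-1 and promotes cytotoxicity and interferon-gamma secretion. TIGIT is an inhibitory receptor with a higher affinity for PVR, found on activated, exhausted and regulatory T cells and on NK cells. CD96 also binds PVR and has been described as both inhibitory and costimulatory. PVR and Nectin-2 belong to the nectin and nectin-like family of adhesion molecules and are often abundant on tumour cells.

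The outcome in brief is given against same-day vehicle. All 3 receptor genes were higher after either drug, Cd226 by the most. Pvr was slightly higher at day 7, and Nectin2 moved little. Called means a Benjamini-Hochberg adjusted p under 0.05 in the edgeR quasi-likelihood test over all genes tested. At day 4, 2 of 5 genes were called higher after mXTX301 (Cd226 and Cd96), where 16.2% of all genes tested were called higher. At day 7, 4 of 5 were called higher after mXTX301 (Cd226, Tigit, Cd96 and Pvr, beside 25.7% of all genes) and 1 was called lower (Nectin2, beside 22.7% of all genes). After the unmasked control the same 2 genes were called higher at day 4 (11.6% of all genes) and the same 4 at day 7 (23.2% of all genes). Both drugs were set against the same vehicle tumours on each day, so the 2 sets of results share their controls.

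Library totals ranged from 48301869 to 85195518 counts. Markers of skin epithelium, which lies over such tumours, varied widely within every group. Their summed level over 13 genes ran from 6.47 to 359 CPM (counts scaled to the size of each library) in mXTX301 day 4 tumours and from 7.04 to 1096 CPM in vehicle day 7 tumours. A skin level above the largest gap in its distribution was found in 12 libraries, and none of the 13 skin genes was called in any drug comparison with vehicle. Without these 12, only replicates 1 and 4 remained in unmasked control day 7 and in vehicle day 7 tumours. In mXTX301 day 7 tumours replicates 2, 4 and 5 remained, and in unmasked control day 4 tumours replicates 1, 2 and 3. A call lost without the 12 libraries therefore does not separate skin from smaller groups. General and intestinal epithelial markers, read as 1 list, were low in every group, with a summed level over 12 genes between 2.61 and 18.3 CPM, and Cdx2 had no count in any library. Of the 12, 7 were tested, and 1 was called lower than in vehicle after each drug at day 4 (Krt20). At day 7, 3 were called lower after mXTX301 (Krt20, Vil1 and Elf3) and 2 after the unmasked control (Krt20 and Elf3), all named after their values were seen. Of all 15482 genes tested, 2477 and 3508 were called lower after mXTX301 at day 4 and day 7, and 1665 and 3378 after the unmasked control. The library of mXTX301 day 4 replicate 3 had both high skin markers and the highest T cell marker level of its group, with a summed 227 CPM over 16 T cell genes, against 63.4 CPM in the lowest tumour of that group.

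Cd226 showed the largest change. The gene (Entrez 225825) lies on chromosome 18 of GRCm38 (mm10), from 89176967 to 89272229 on the plus strand. At day 4, Cd226 had 0.557, 1.23, 2.98, 1.28 and 1.53 CPM in the mXTX301 tumours, 1.08, 1.69, 0.846, 1.06 and 1.2 CPM in the unmasked control tumours, and 0.0989, 0.107, 0.0734, 0.0632 and 0.157 CPM in the vehicle tumours. At day 7 it had 1.97, 2.79, 1.70, 5.44 and 3.85 CPM in the mXTX301 tumours, 1.22, 4.99, 2.34, 5.10 and 5.64 CPM in the unmasked control tumours, and 0.131, 0.192, 0.0156, 0.0974 and 0.285 CPM in the vehicle tumours. All 10 mXTX301 and all 10 unmasked control libraries lay above every vehicle library. The lowest drug-treated tumour had 0.557 CPM and the highest vehicle tumour 0.285 CPM. The vehicle values rest on 1 to 19 counts per library, so they carry a large counting error, whereas the drug-treated tumours had 27 to 375 counts. Cd226 passed the low-count filter through the drug-treated tumours, and with vehicle tumours alone it would not have been tested. Its folds therefore describe a gene that entered the tests through the groups where it was high.

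Against vehicle, Cd226 was 15-fold higher after mXTX301 at day 4 (log2 difference 3.90, SE 0.54, edgeR adjusted p = 9.43e-06) and 21.5-fold higher at day 7 (log2 difference 4.42, SE 0.53, edgeR adjusted p = 3.13e-07). After the unmasked control it was 11.6-fold higher at day 4 (edgeR adjusted p = 3.38e-05) and 26.3-fold higher at day 7 (edgeR adjusted p = 1.86e-07). The 95% intervals of the folds were wide, from 6.98 to 32.1 for mXTX301 at day 4 and from 10.1 to 45.6 at day 7. The day 7 fold after mXTX301 was 34.1 without the 12 libraries with high skin markers and 35.3 in an alternative chosen after seeing the data, without the 8 libraries whose skin level was over 2. Without the 12, vehicle day 7 kept only replicates 1 and 4, with 11 and 6 Cd226 counts. Ordered by mean, Cd226 stood at 3.86 ± 1.95 CPM in unmasked control day 7 tumours, 3.15 ± 1.53 in mXTX301 day 7, 1.52 ± 0.896 in mXTX301 day 4, 1.17 ± 0.314 in unmasked control day 4, 0.144 ± 0.101 in vehicle day 7 and 0.0998 ± 0.0365 in vehicle day 4 (SD, n = 5 each). Neighbours in that order overlapped, except at the step between unmasked control day 4 and vehicle day 7.

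**Figure D1:**
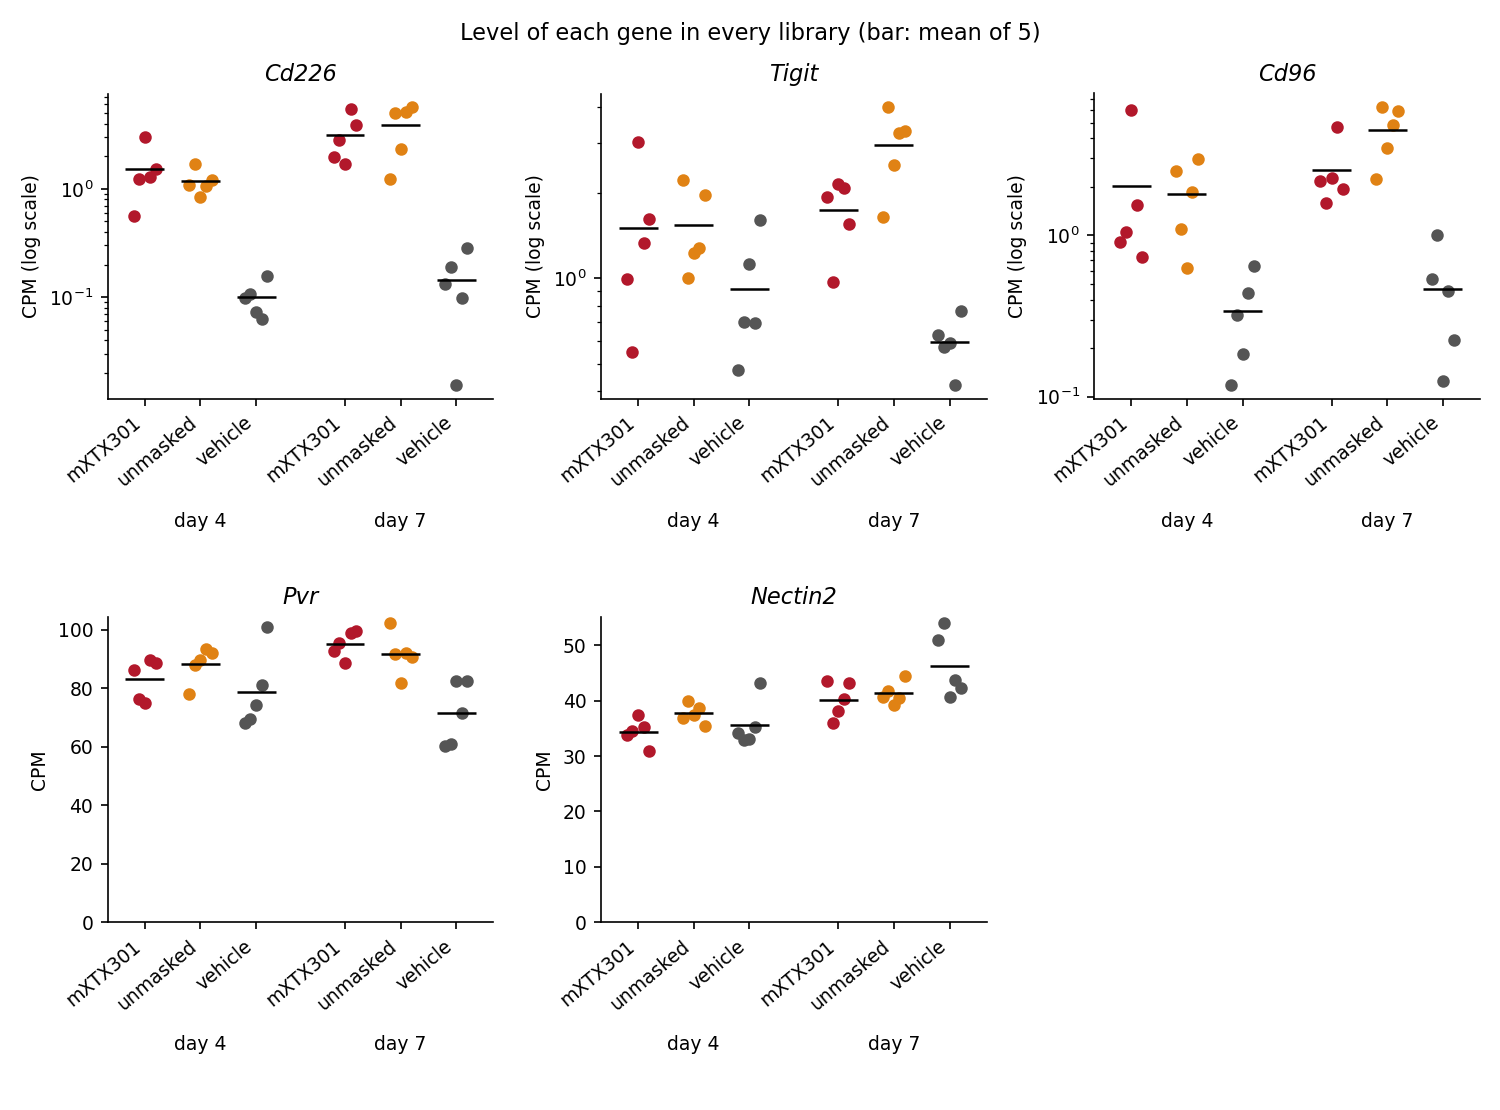
Level of each gene in CPM in every library, one panel per gene (log axis for the 3 receptors, linear axis from 0 for the 2 ligands), with 5 points per group and a bar at the group mean, for mXTX301, unmasked control and vehicle at day 4 and then day 7. All drug-treated Cd226 points lie above all vehicle points, with 0.557 CPM the lowest drug-treated and 0.285 CPM the highest vehicle value, while on each day the Nectin2 values of the 3 treatments overlap.

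In bulk tumour RNA, more cells of a type and more RNA per cell cannot be told apart, and T cell markers moved in the same comparisons as the receptors. Of 16 T cell markers, 14 were called higher after mXTX301 at day 4 and 16 at day 7, and 13 and 16 after the unmasked control. Over all genes tested, 16.2% and 25.7% were called higher after mXTX301 at day 4 and day 7, and 11.6% and 23.2% after the unmasked control. Cd3e, a chain of the T cell receptor complex, was 5.37-fold higher after mXTX301 at day 4 (edgeR adjusted p = 0.000158) and 9.95-fold higher at day 7 (edgeR adjusted p = 1.35e-06). The summed T cell level ran from 124 to 276 CPM in mXTX301 day 7 tumours, from 112 to 328 CPM in unmasked control day 7 tumours and from 33.1 to 48.0 CPM in vehicle day 7 tumours. Neither drug overlapped with vehicle. Of 10 NK cell markers tested, 8 were called higher after either drug at day 4 and 7 at day 7. Their summed level was 60.2 to 118 CPM, 69.7 to 137 CPM and 29.1 to 51.3 CPM in the same 3 day 7 groups. Ncr1, the NK receptor NKp46, was 2.44-fold higher after mXTX301 at day 4 (edgeR adjusted p = 0.0432) and 1.12-fold that of vehicle at day 7 (edgeR adjusted p = 0.806), and the NK list's Klra8 had no count in 5 of the 6 groups. The part of T and NK cell content in the receptor results was not tested beyond the per-library ratios given below.

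CD226 is also carried by platelets, monocytes and mast cells, and their markers were read for that reason. Of 5 platelet and megakaryocyte markers tested, 0 were called after either drug at day 4, when their summed level was 7.57 to 14.5 CPM after mXTX301, 9.93 to 18.9 CPM after the unmasked control and 6.99 to 16.05 CPM after vehicle. At day 7, 2 were called higher after mXTX301, Itga2b at 1.98-fold (edgeR adjusted p = 0.00332) and Treml1 at 5.80-fold (edgeR adjusted p = 0.00416), and the same 2 with Pf4 after the unmasked control; these 3 were named after their values were seen. Macrophage and monocyte markers were called higher for 8 of 12 after mXTX301 at day 4 and 12 of 12 at day 7, and for 2 and 11 of 12 after the unmasked control. Mast cell markers were called higher for 1 of 7 tested (and lower for 1) after mXTX301 at day 4 and 5 of 7 at day 7, with 1 and 5 of 7 higher after the unmasked control. The shares of all genes called higher were 16.2% and 25.7% after mXTX301 at day 4 and day 7, and 11.6% and 23.2% after the unmasked control. The 1 of 7 mast cell markers at day 4, and the 2 of 12 macrophage and monocyte markers after the unmasked control, were near these shares. What these cells contributed to Cd226 was not tested.

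Tigit was higher than in same-day vehicle tumours at day 7, and by less than Cd226. The gene (Entrez 100043314) lies on chromosome 16, from 43648867 to 43664146 on the minus strand. At day 4, Tigit had 0.990, 0.552, 3.01, 1.33 and 1.62 CPM in the mXTX301 tumours, 2.21, 1.00, 1.22, 1.28 and 1.95 CPM in the unmasked control tumours, and 0.474, 0.701, 1.12, 0.695 and 1.60 CPM in the vehicle tumours. At day 7 it had 1.93, 0.966, 2.14, 2.07 and 1.55 CPM in the mXTX301 tumours, 1.64, 3.99, 2.50, 3.23 and 3.29 CPM in the unmasked control tumours, and 0.631, 0.575, 0.591, 0.422 and 0.765 CPM in the vehicle tumours. The groups overlapped at day 4, whereas every drug-treated library stood above every vehicle library at day 7.

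Tigit was 2.89-fold higher after mXTX301 at day 7 (log2 difference 1.53, SE 0.37, edgeR adjusted p = 0.00123) and 4.89-fold higher after the unmasked control (log2 difference 2.29, SE 0.37, edgeR adjusted p = 2.23e-05). At day 4 its level was 1.64 times that of vehicle after mXTX301 (95% interval 0.981 to 2.73, edgeR adjusted p = 0.136) and 1.67 times after the unmasked control (95% interval 0.999 to 2.78, edgeR adjusted p = 0.142), neither past the threshold. Leaving out vehicle day 4 replicate 5, the vehicle tumour with the highest Tigit, brought both day 4 differences past it, at 2.00-fold (edgeR adjusted p = 0.0455) and 2.05-fold (edgeR adjusted p = 0.0409). The day 7 fold after mXTX301 was 2.86 without the 12 libraries with high skin markers, with an adjusted p of 0.0515. Ordered by mean, Tigit stood at 2.93 ± 0.894 CPM in unmasked control day 7, 1.73 ± 0.484 in mXTX301 day 7, 1.53 ± 0.519 in unmasked control day 4, 1.5 ± 0.934 in mXTX301 day 4, 0.919 ± 0.448 in vehicle day 4 and 0.597 ± 0.123 in vehicle day 7 (SD, n = 5 each), and each group overlapped the next. Its day 7 level was 1.15 times that of day 4 in mXTX301 tumours (edgeR adjusted p = 0.725) and 0.651 times in vehicle tumours (edgeR adjusted p = 0.354).

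Regulatory T cells carry TIGIT, and Foxp3, their lineage transcription factor, did not pass the test in any comparison of a drug with vehicle. Foxp3 averaged 0.555 ± 0.0885 CPM in mXTX301 day 7 tumours and 0.489 ± 0.271 CPM in vehicle day 7 tumours (SD, n = 5 each; edgeR adjusted p = 0.752), and 0.533 ± 0.343 CPM in unmasked control day 7 tumours (edgeR adjusted p = 0.841 against vehicle). Of the 6 regulatory T cell markers, 3 were called higher after mXTX301 at day 7, named after their values were seen: the inhibitory receptor gene Ctla4 at 3.98-fold (edgeR adjusted p = 0.000199), Ikzf4 at 3.61-fold (edgeR adjusted p = 0.000129) and Tnfrsf18 at 2.40-fold (edgeR adjusted p = 0.000614). After the unmasked control 4 of 6 were called higher at day 7, those 3 and Il2ra, which encodes the high-affinity chain of the IL-2 receptor. At day 4, 3 of 6 were called higher after mXTX301 (Il2ra, Ikzf4 and Tnfrsf18) and 2 of 6 after the unmasked control (Ikzf4 and Tnfrsf18). Beside these stood 16.2% and 11.6% of all genes called higher at day 4, and 25.7% and 23.2% at day 7, after mXTX301 and the unmasked control. The list's summed level was 23.7 to 33.4 CPM in mXTX301 day 7 tumours, 24.1 to 33.5 CPM in unmasked control day 7 tumours and 15.1 to 26.9 CPM in vehicle day 7 tumours, and its part in the Tigit result was not tested.

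Cd96 rose after both drugs on both days. The gene (Entrez 84544) lies on chromosome 16, from 46035657 to 46120251 on the minus strand. At day 4, Cd96 had 0.907, 1.05, 5.95, 1.54 and 0.732 CPM in the mXTX301 tumours, 2.49, 1.10, 0.630, 1.85 and 2.96 CPM in the unmasked control tumours, and 0.119, 0.320, 0.184, 0.443 and 0.645 CPM in the vehicle tumours. At day 7 it had 2.17, 1.59, 2.28, 4.73 and 1.93 CPM in the mXTX301 tumours, 2.24, 6.22, 3.46, 4.84 and 5.88 CPM in the unmasked control tumours, and 0.536, 0.999, 0.124, 0.454 and 0.225 CPM in the vehicle tumours. The mXTX301 libraries were all above the vehicle libraries on both days, and the unmasked control libraries were at day 7, while at day 4 the lowest unmasked control tumour, at 0.630 CPM, fell just under the highest vehicle tumour, at 0.645 CPM.

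Against vehicle, Cd96 was 5.92-fold higher after mXTX301 at day 4 (log2 difference 2.56, SE 0.60, edgeR adjusted p = 0.00199) and 5.38-fold higher at day 7 (edgeR adjusted p = 0.00135). After the unmasked control it was 5.22-fold higher at day 4 (edgeR adjusted p = 0.00498) and 9.61-fold higher at day 7 (log2 difference 3.26, SE 0.60, edgeR adjusted p = 9.95e-05). Replicate 3 of the mXTX301 day 4 group set much of that group's mean, and without it the day 4 fold was 3.03 (edgeR adjusted p = 0.0230). Without the 12 libraries with high skin markers, which include it, that fold was 3.30 (edgeR adjusted p = 0.0320). Ordered by mean, Cd96 stood at 4.53 ± 1.67 CPM in unmasked control day 7, 2.54 ± 1.25 in mXTX301 day 7, 2.04 ± 2.21 in mXTX301 day 4, 1.81 ± 0.959 in unmasked control day 4, 0.468 ± 0.341 in vehicle day 7 and 0.342 ± 0.210 in vehicle day 4 (SD, n = 5 each), with overlap at each step.

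**Figure D2:**
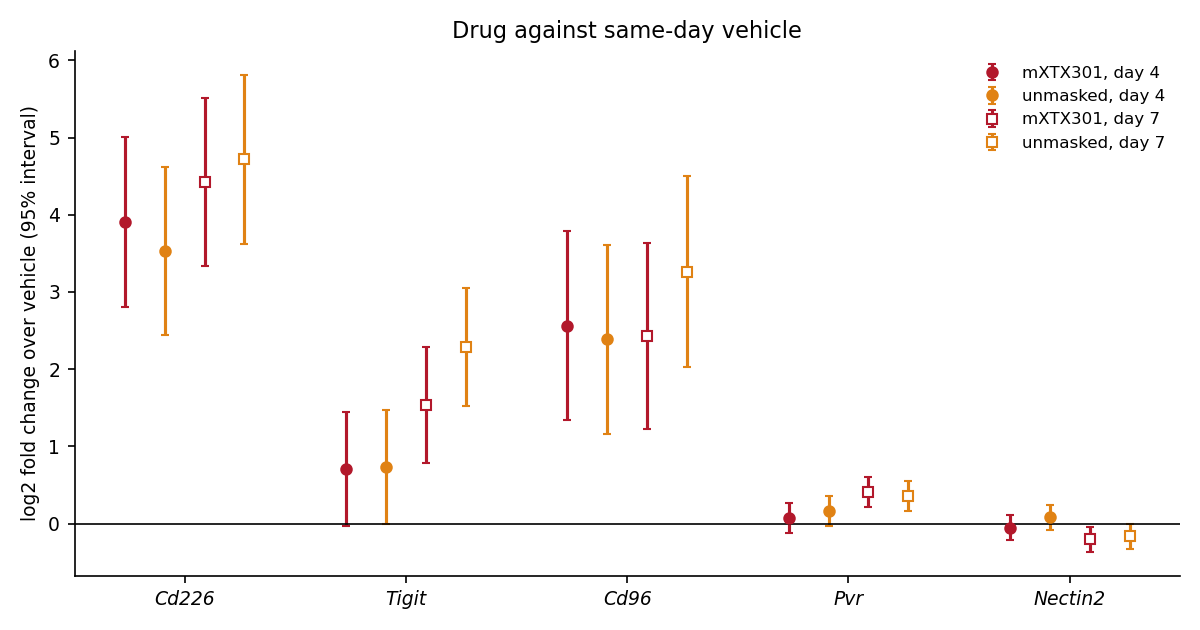
Log2 fold change of each gene against same-day vehicle with its 95% interval, for mXTX301 (red) and the unmasked control (orange) at day 4 (filled circles) and day 7 (open squares). Cd226 has the highest points, between 3.53 and 4.72, and Pvr and Nectin2 stay between -0.20 and 0.41.

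The 250 bases upstream of RefSeq transcription starts were read for motifs of factors known in activated T and NK cells. RefSeq windows of build GRCm38.p6 matched 3 of the 5 genes by symbol (Tigit, Cd96 and Nectin2), and none matched Cd226 or Pvr. The windows of Tigit (chr16:43664185-43664434, minus strand) and Cd96 (chr16:46120249-46120498, minus strand) are shown 5′ to 3′ on the gene's strand with motif matches in capitals.
Tigit: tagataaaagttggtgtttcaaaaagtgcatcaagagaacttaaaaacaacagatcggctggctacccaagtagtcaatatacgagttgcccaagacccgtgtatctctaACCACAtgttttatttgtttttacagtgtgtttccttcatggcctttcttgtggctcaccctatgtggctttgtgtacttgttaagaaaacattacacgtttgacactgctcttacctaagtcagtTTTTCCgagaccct
Cd96: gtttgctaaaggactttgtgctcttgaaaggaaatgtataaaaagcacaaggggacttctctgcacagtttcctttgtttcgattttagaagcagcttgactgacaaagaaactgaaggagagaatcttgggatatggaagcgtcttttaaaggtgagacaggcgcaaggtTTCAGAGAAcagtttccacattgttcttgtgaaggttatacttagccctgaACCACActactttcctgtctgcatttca
In all, 5 motifs were searched on both strands. The first was the STAT-binding GAS element (TTCNNNGAA, in 7.02% of the 32851 upstream windows of all entries), and the second the ISRE bound by interferon regulatory factors (2.98%). The others were a T-box motif (GGTGTGA, 3.33%), a RUNX motif (TGTGGT, 14.0%) and an NFAT motif (GGAAAA, 20.4%). The Tigit window held a RUNX match on the minus strand starting 140 bases before the transcription start and an NFAT match on the minus strand 14 bases before it. The Cd96 window held a GAS match on the plus strand 79 bases before the start and a RUNX match on the minus strand 28 bases before it. The Nectin2 window (chr7:19749574-19749823, minus strand) held a T-box match on the plus strand 195 bases before its RefSeq start. That window lies inside the gene as GENCODE places it, with its start at 19750483. Each match describes the letters in the window and was not tested as a binding site.

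Cd226 changed relative to Tigit within libraries. The log2 ratio of Cd226 to Tigit CPM averaged 0.035 ± 0.68 in mXTX301 day 4 tumours, -0.35 ± 0.66 in unmasked control day 4 tumours and -2.77 ± 0.59 in vehicle day 4 tumours (SD, n = 5 each). At day 7 it averaged 0.78 ± 0.86 in mXTX301 tumours, 0.25 ± 0.50 in unmasked control tumours and -2.06 ± 0.96 in vehicle tumours (SD, n = 5 each). The lowest drug-treated library of each day, at -1.02 on day 4 and -0.42 on day 7, was above the highest vehicle library of that day, at -1.95 and -1.33. In counts, a median of 0.962 Cd226 reads was found per Tigit read in mXTX301 day 4 tumours, 0.691 in unmasked control day 4 tumours and 0.0978 in vehicle day 4 tumours. At day 7 the medians were 2.48, 1.25 and 0.231 reads in mXTX301, unmasked control and vehicle tumours. The ratio is given as a description without a test, and since the genes differ in length it compares groups and not the 2 receptors' abundance.

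**Figure D3:**
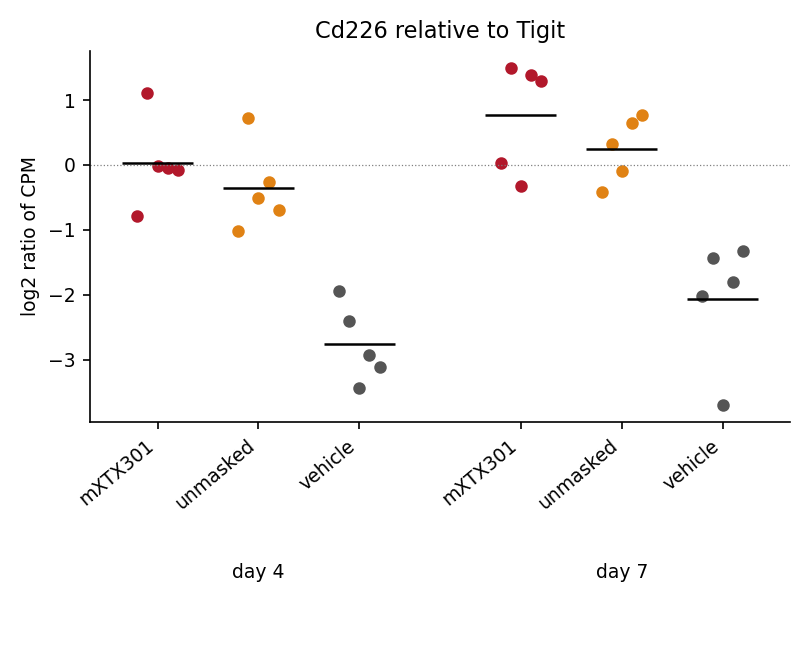
Log2 ratio of Cd226 to Tigit CPM in each library, with 5 points per group, a bar at the mean and a dotted line at 0, for mXTX301, unmasked control and vehicle at day 4 and day 7. The group means lie between -0.35 and 0.78 after either drug and at -2.77 and -2.06 after vehicle, with no overlap on either day.

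Set against the mean log2 level of the 16 T cell markers in the same library, the 3 receptors took different courses. Cd226 minus the T cell level averaged -1.41 in mXTX301 day 4 tumours (range -1.98 to -1.02), -1.69 in unmasked control day 4 tumours (range -2.18 to -1.24) and -3.18 in vehicle day 4 tumours (range -3.76 to -2.71). At day 7 these means were -1.24, -1.45 and -2.71, with the vehicle range of -3.89 to -1.53 overlapping that of both drugs. At day 4, then, each drug-treated library had more Cd226 for its T cell level than any vehicle library.
Tigit minus the T cell level went the other way, averaging -2.02 in mXTX301 day 7 tumours (range -2.46 to -1.56), -1.69 in unmasked control day 7 tumours (range -1.90 to -1.43) and -0.65 in vehicle day 7 tumours (range -1.12 to -0.19). At day 4 the Tigit means were -1.45, -1.34 and -0.41 in mXTX301, unmasked control and vehicle tumours, with overlapping ranges. Cd96 minus the T cell level overlapped between groups on both days, with means of -1.53 after mXTX301, -1.10 after the unmasked control and -1.24 after vehicle at day 7. These differences are log2 values with a prior count of 2, which raises the lowest values and so narrows the Cd226 difference between drug and vehicle.

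**Figure D4:**
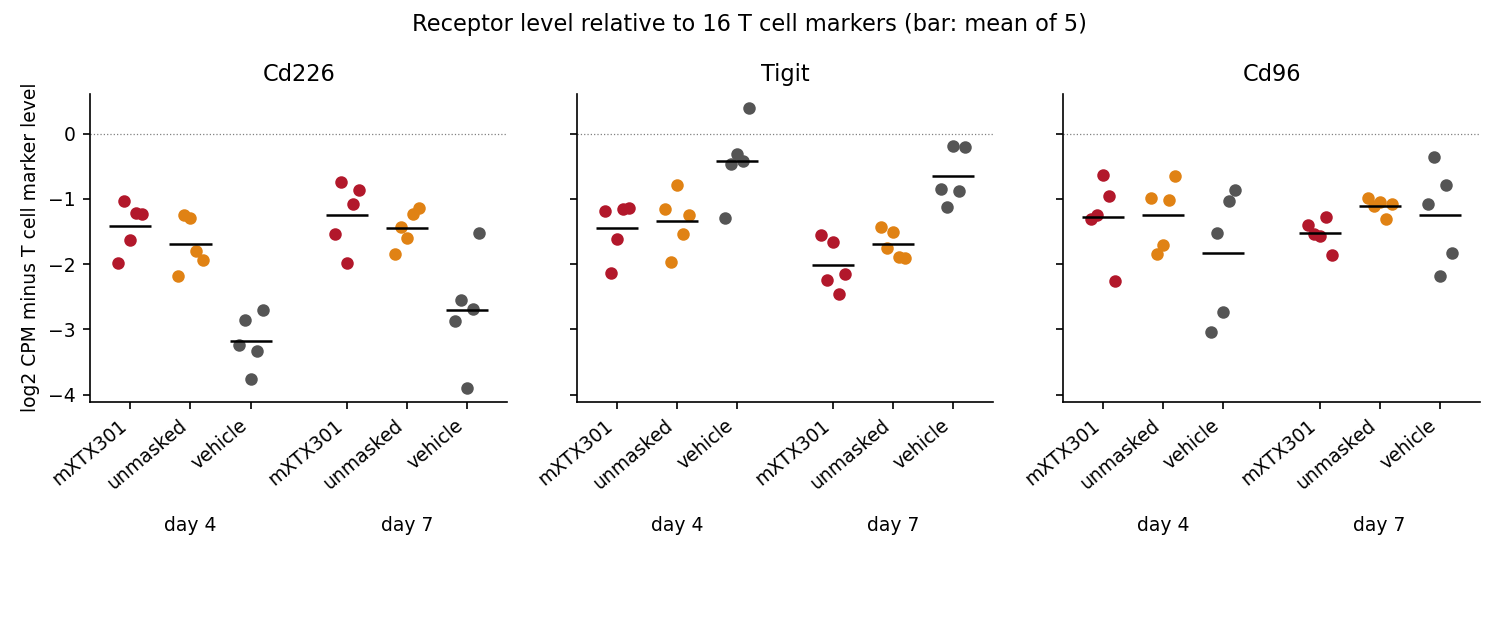
Log2 CPM of Cd226, Tigit and Cd96 minus the mean log2 CPM of 16 T cell markers in the same library, one panel per gene, with 5 points per group and a bar at the mean. Cd226 means sit at -1.41, -1.69 and -3.18 in the mXTX301, unmasked control and vehicle day 4 tumours, the Tigit means at day 7 are lower after drug (-2.02 and -1.69) than after vehicle (-0.65), and the Cd96 groups overlap.

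Among the ligands, Pvr was modestly higher than in same-day vehicle tumours at day 7. The gene (Entrez 52118) lies on chromosome 7, from 19903578 to 19921160 on the minus strand, and overlaps the predicted genes Gm16184 and Gm16251 on the other strand without shared exon bases. At day 4, Pvr had 86.3, 76.1, 75.1, 89.7 and 88.5 CPM in the mXTX301 tumours, 77.9, 87.9, 89.6, 93.5 and 92.1 CPM in the unmasked control tumours, and 68.1, 69.5, 74.4, 81.0 and 101 CPM in the vehicle tumours. At day 7 it had 92.9, 95.6, 88.5, 98.9 and 99.5 CPM in the mXTX301 tumours, 102, 91.6, 81.7, 91.9 and 90.6 CPM in the unmasked control tumours, and 60.2, 61.0, 82.4, 71.6 and 82.3 CPM in the vehicle tumours. All mXTX301 libraries were above all vehicle libraries at day 7, 1 unmasked control library fell among the vehicle ones, and at day 4 the groups overlapped.

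Pvr was 1.33-fold higher after mXTX301 at day 7 (log2 difference 0.41, SE 0.096, edgeR adjusted p = 0.000938) and 1.28-fold higher after the unmasked control (log2 difference 0.36, SE 0.096, edgeR adjusted p = 0.00349). At day 4 the Pvr level was 1.06 times that of vehicle after mXTX301 (95% interval 0.921 to 1.21, edgeR adjusted p = 0.581) and 1.12 times after the unmasked control (95% interval 0.977 to 1.28, edgeR adjusted p = 0.227). Without vehicle day 4 replicate 5, which had the highest vehicle Pvr, the unmasked control difference at day 4 passed the threshold at 1.21-fold (edgeR adjusted p = 0.0238). Ordered by mean, Pvr stood at 95.1 ± 4.53 CPM in mXTX301 day 7, 91.6 ± 7.30 in unmasked control day 7, 88.2 ± 6.15 in unmasked control day 4, 83.1 ± 6.98 in mXTX301 day 4, 78.8 ± 13.4 in vehicle day 4 and 71.5 ± 10.9 in vehicle day 7 (SD, n = 5 each), and every step was within the spread.

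Markers of stromal and myeloid cells were read beside Pvr. At day 7 the median log2 difference of 9 fibroblast markers was 1.28 after mXTX301 and 0.54 after the unmasked control. Over all genes it was 0.016 and 0.012. Called higher were 5 of 9 after mXTX301, beside 25.7% of all genes, and 2 of 9 after the unmasked control, near the 23.2% of all genes. After mXTX301 these were the collagen genes Col1a2 (2.52-fold) and Col3a1 (2.64-fold), Lum, Fap and Thy1, and after the unmasked control Fap and Thy1, named after their values were seen; Thy1 is also carried by T cells. Their summed level at day 7 was 3222 to 8727 CPM after mXTX301, 2288 to 4850 CPM after the unmasked control and 1693 to 3981 CPM after vehicle. At day 4, 0 of 9 were called after either drug. Of 10 endothelial markers, 1 (Vwf, also named after its value was seen) was called higher after mXTX301 and 0 were called after the unmasked control at day 7, while at day 4, 5 were called lower after mXTX301 (Kdr, Emcn, Esam, Egfl7 and Tie1) and 7 after the unmasked control. The 1 of 10 at day 7 was under the 25.7% of all genes. At day 4, 2477 and 1665 of all 15482 genes were called lower after mXTX301 and the unmasked control. Macrophage and monocyte markers were called higher for 12 of 12 after mXTX301 and 11 of 12 after the unmasked control at day 7. What any of these cells contributed to Pvr was not tested.

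Nectin2 hardly moved with treatment. The gene, which the count table lists without an identifier, lies on chromosome 7 from 19716644 to 19750483 on the minus strand, and shares 135 exon bases with the antisense gene Gm20512. Whether counting used strand is not stated, so reads from that stretch cannot be told apart. At day 4, Nectin2 had 33.9, 34.5, 37.5, 35.2 and 30.9 CPM in the mXTX301 tumours, 36.9, 40.04, 37.5, 38.7 and 35.5 CPM in the unmasked control tumours, and 34.1, 32.9, 33.1, 35.3 and 43.2 CPM in the vehicle tumours. At day 7 it had 43.5, 36.0, 38.2, 40.2 and 43.3 CPM in the mXTX301 tumours, 40.7, 41.8, 39.3, 40.6 and 44.5 CPM in the unmasked control tumours, and 50.9, 54.0, 40.7, 43.8 and 42.3 CPM in the vehicle tumours. Every drug group overlapped its vehicle group, and vehicle day 7 replicates 1 and 2 were the 2 highest of all 30 libraries.

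At day 7, Nectin2 after mXTX301 was lower than vehicle by 0.20 on the log2 scale (SE 0.078, edgeR adjusted p = 0.0330). After the unmasked control the log2 difference was -0.16 (95% interval -0.32 to -0.0032, edgeR adjusted p = 0.0892) and did not pass. The mean level rose from day 4 to day 7 in both treatments, to 1.17 times in mXTX301 tumours (edgeR adjusted p = 0.0514) and 1.30 times in vehicle tumours (edgeR adjusted p = 0.05003). The mXTX301 call was lost without vehicle day 7 replicate 1 (edgeR adjusted p = 0.0728) or replicate 2 (0.109), without mXTX301 day 7 replicate 2 (0.0746) or replicate 3 (0.0583), without the 12 libraries with high skin markers (0.0882) and in a fit of the compared groups alone (0.0714). The unmasked control difference was called without vehicle day 7 replicate 3 (edgeR adjusted p = 0.0188) or replicate 5 (0.0389). At day 4 the log2 difference was -0.054 after mXTX301 (edgeR adjusted p = 0.644) and 0.080 after the unmasked control (edgeR adjusted p = 0.490). Nectin2 averaged 34.4 ± 2.38 CPM in mXTX301 day 4, 37.7 ± 1.74 in unmasked control day 4 and 35.7 ± 4.29 in vehicle day 4 tumours, and 40.2 ± 3.26 in mXTX301 day 7, 41.4 ± 1.97 in unmasked control day 7 and 46.3 ± 5.80 in vehicle day 7 tumours (SD, n = 5 each). By mean, vehicle day 7 was the highest and mXTX301 day 4 the lowest, and each group overlapped the next in order.

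Per kilobase of merged exons, the ligands stood well above the receptors in every group. In mXTX301 day 7 tumours Pvr averaged 15.5 ± 0.741 CPM per kb, Nectin2 11.5 ± 0.933, Tigit 1.88 ± 0.527, Cd96 1.16 ± 0.574 and Cd226 0.644 ± 0.312 (SD, n = 5 each). In unmasked control day 7 tumours the level per kb was 14.96 ± 1.19 for Pvr, 11.8 ± 0.565 for Nectin2, 3.19 ± 0.973 for Tigit, 2.07 ± 0.766 for Cd96 and 0.789 ± 0.3996 for Cd226. In vehicle day 7 tumours it was 11.7 ± 1.77 for Pvr, 13.3 ± 1.66 for Nectin2, 0.649 ± 0.134 for Tigit, 0.214 ± 0.156 for Cd96 and 0.0295 ± 0.0207 for Cd226. Cd226 was thus the lowest receptor per kb in each of these groups even where its fold change was the largest, and Tigit the highest by mean. This order rests on merged exon lengths of 4.891 kb for Cd226 and 0.919 kb for Tigit. In CPM, Tigit was the lowest receptor by mean in the day 7 tumours of mXTX301 (1.73) and the unmasked control (2.93), and the highest in vehicle day 7 tumours (0.597). Per kb, Tigit and Cd96 overlapped in mXTX301 day 7 tumours. The Pvr and Nectin2 levels per kb overlapped in vehicle day 7 tumours and did not in the day 7 tumours of either drug.

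Between days within a treatment, 1 of 5 genes was called in the unmasked control group, where 14.4% of all genes were called higher at day 7 than at day 4. That gene was Cd226, at 3.28-fold (log2 difference 1.71, SE 0.46, edgeR adjusted p = 0.00920), with 1.22 to 5.64 CPM at day 7 and 0.846 to 1.69 CPM at day 4, which overlap. The call was lost without the 12 libraries with high skin markers, at 2.57-fold (edgeR adjusted p = 0.319). That fit kept only replicates 1 and 4 of the unmasked control at day 7 and replicates 1, 2 and 3 at day 4. In mXTX301 tumours none of the 5 genes was called between days, where 14.5% of all genes were called in either direction (2242 genes, and 533 to 3420 with 1 library left out). Cd226 stood at 2.07 times its day 4 level (edgeR adjusted p = 0.109). Without mXTX301 day 4 replicate 3 that Cd226 difference was 2.7-fold with an edgeR adjusted p of 0.0307, and it was 3.46-fold without the 12 libraries with high skin markers (edgeR adjusted p = 0.0197). In mXTX301 tumours Nectin2 passed the threshold without mXTX301 day 4 replicate 3 (1.18-fold, edgeR adjusted p = 0.0404) or without mXTX301 day 7 replicate 2 (1.19-fold, edgeR adjusted p = 0.0444).

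Tigit and Cd96 in the unmasked control group stood at 1.91 and 2.51 times their day 4 levels without passing the threshold (edgeR adjusted p = 0.0536 and 0.0772), and both were called by DESeq2, by limma-voom and in a fit of the compared groups alone. Tigit there was also called without unmasked control day 4 replicate 1 (2.11-fold, edgeR adjusted p = 0.0421) or day 7 replicate 1 (2.09-fold, edgeR adjusted p = 0.0273). In vehicle tumours none of the 5 genes was called, where 0.0388% of all genes were. Vehicle Nectin2 missed the threshold narrowly, at 1.30 times its day 4 level with an edgeR adjusted p of 0.05003, and it was called by DESeq2 (adjusted p = 0.00343) and limma-voom (adjusted p = 0.0416). It was also called without any one of vehicle day 4 replicate 4 or 5 or vehicle day 7 replicate 3 or 5, with adjusted p between 0.00678 and 0.0459.

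Whether a drug's effect differed between days was tested as the day 7 minus the day 4 difference from vehicle. None of the 5 genes passed for mXTX301, where 4.99% of all genes did, or for the unmasked control, where 5.15% did. The largest such difference was that of Tigit under the unmasked control, whose effect was 2.94 times as large at day 7 as at day 4 (95% interval 1.42 to 6.06, edgeR adjusted p = 0.0627). It was called by DESeq2 (adjusted p = 0.0311), with the skin level as a covariate (0.0446), and without vehicle day 7 replicate 5 (0.0474) or unmasked control day 7 replicate 1 (0.0313). Nectin2 under the unmasked control was called without vehicle day 4 replicate 5, with a log2 difference of -0.34 (edgeR adjusted p = 0.0188).

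mXTX301 and the unmasked control, at their different doses, were not told apart in any of the 5 genes. At day 4, 0% of all genes were called between them and at day 7 likewise 0%, although 2092 and 898 genes had an unadjusted p under 0.05. DESeq2 called 25 genes at day 4 and 14 at day 7, limma-voom called 0 on either day, and edgeR on the 2 groups alone called 194 at day 4 and 0 at day 7. At day 7, Tigit after mXTX301 was 0.591 times its level after the unmasked control (95% interval 0.356 to 0.980, edgeR adjusted p = 0.858) and Cd96 was 0.560 times (95% interval 0.256 to 1.23, edgeR adjusted p = 0.880). Cd226 after mXTX301 was 1.29 times its level after the unmasked control at day 4 (95% interval 0.681 to 2.46) and 0.816 times at day 7 (95% interval 0.433 to 1.54). The Pvr ratio at day 7 was 1.04 (95% interval 0.906 to 1.19) and that of Nectin2 0.972 (95% interval 0.870 to 1.09). An adjusted p above the threshold does not show that the molecules act alike on these genes.

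Of 11 signalling partners of CD226 and TIGIT, 7 were called higher after mXTX301 at day 4 and 8 at day 7, and 4 and 9 after the unmasked control, with 0 lower in any. Among all genes, 16.2% and 25.7% were called higher after mXTX301 on these days, and 11.6% and 23.2% after the unmasked control. The list's median log2 difference was 1.07 after mXTX301 at day 7, beside 0.016 over all genes tested, and 1.21 after the unmasked control, beside 0.012. Itgal and Itgb2 encode the 2 chains of LFA-1, the integrin that associates with CD226. Itgal averaged 72.5 ± 18.1 CPM in mXTX301 day 7 tumours and 11.6 ± 3.76 CPM in vehicle day 7 tumours (SD, n = 5 each), 6.24-fold higher (edgeR adjusted p = 4.45e-07). Itgb2 averaged 246 ± 47.2 CPM in mXTX301 day 7 tumours and 56.3 ± 11.5 CPM in vehicle day 7 tumours (SD, n = 5 each), 4.37-fold higher (edgeR adjusted p = 7.73e-08). Both are carried by most leukocytes, including the myeloid cells whose markers rose in the same comparison.

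Pdcd1, which encodes the inhibitory receptor PD-1 and thereby a brake on CD226 signalling, was 9.62-fold higher after mXTX301 at day 7 (edgeR adjusted p = 9.27e-07) and 13.9-fold higher after the unmasked control (edgeR adjusted p = 1.91e-07). Lcp2, the adaptor SLP-76, was 3.336-fold higher after mXTX301 at day 7 (edgeR adjusted p = 1.55e-05). The 4 partners called at day 4 after the unmasked control were these same 4: Itgal (3.52-fold), Itgb2 (2.46-fold), Lcp2 (2.15-fold) and Pdcd1 (6.23-fold). Among the rest, the kinase gene Fyn, the exchange factor gene Vav1 and the phosphatase gene Inpp5d were called higher after mXTX301 on both days and after the unmasked control at day 7. Arrb2, a beta-arrestin, was called at day 7 with both drugs and Plcg2, a phospholipase, at day 7 with the unmasked control. The adaptor Grb2 and the phosphatase Ptpn11 were called in no comparison of a drug with vehicle.

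**Figure D5:**
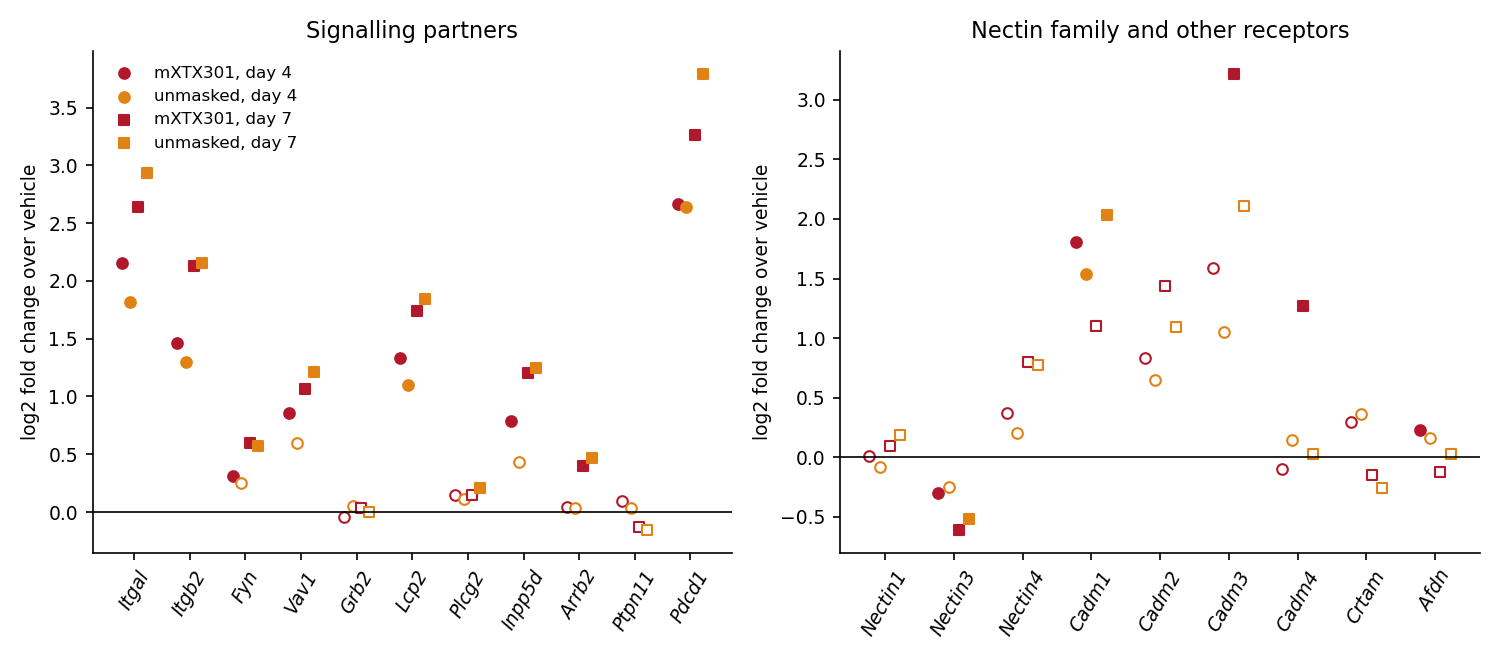
Log2 fold change against same-day vehicle for the 11 signalling partners (left) and the 9 tested nectin-family and related genes (right), in red for mXTX301 and orange for the unmasked control, circles at day 4 and squares at day 7; filled symbols have an adjusted p under 0.05. Pdcd1 and Itgal have the highest partner values at day 7, 3.79 and 2.93 after the unmasked control and 3.27 and 2.64 after mXTX301, and Nectin3 lies below 0 in all 4 comparisons.

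The wider nectin family did not move as a block. Of 10 listed genes 9 were tested (Pvrig is not analysed here). After mXTX301, 2 of 9 were called higher on each day, beside 16.2% of all genes at day 4 and 25.7% at day 7. On each day 1 of 9 was called lower, beside 2477 of 15482 genes at day 4 and 22.7% at day 7. After the unmasked control, 1 of 9 was called higher at day 4 (11.6% of all genes) and 1 of 9 at day 7 (23.2%). At day 7, 1 of 9 was called lower, beside 3378 of 15482 genes. With 9 genes these counts are not set apart from the shares over all genes, so the calls below describe single genes. Nectin3, an adhesion partner of Nectin-2 and PVR, was the gene called lower. It averaged 22.6 ± 1.78 CPM in mXTX301 day 7 tumours and 34.4 ± 5.20 CPM in vehicle day 7 tumours (SD, n = 5 each), lower by 0.61 on the log2 scale (edgeR adjusted p = 1.14e-05). It was lower than vehicle by 0.30 after mXTX301 at day 4 (edgeR adjusted p = 0.0185) and by 0.51 after the unmasked control at day 7 (edgeR adjusted p = 9.72e-05), and its log2 difference was -0.25 after the unmasked control at day 4 (edgeR adjusted p = 0.0566). Cadm3 and Cadm4, adhesion molecules of the nectin-like family, were the 2 called higher after mXTX301 at day 7, at 9.31-fold (edgeR adjusted p = 0.00560) and 2.41-fold (edgeR adjusted p = 0.0448). Their spread was wide, with 8.25 ± 8.67 CPM of Cadm3 in mXTX301 day 7 tumours and 0.889 ± 1.32 CPM in vehicle day 7 tumours (SD, n = 5 each). Cadm2 had 2.7 times its vehicle level there (edgeR adjusted p = 0.0562).

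The genes called higher in the other 3 comparisons of this list were named after their values were seen. Cadm1, the ligand of the CRTAM receptor and a gene also on the list of cross-presenting dendritic cell markers, was 3.50-fold higher after mXTX301 at day 4 (edgeR adjusted p = 0.0132), and 2.90-fold and 4.09-fold higher after the unmasked control at day 4 and day 7 (edgeR adjusted p = 0.0427 and 0.00360). Of the 8 markers of that dendritic cell list, 6 and 4 were called higher after mXTX301 at day 4 and day 7 and 5 and 5 after the unmasked control. The matching shares of all genes were 16.2% and 25.7% after mXTX301, and 11.6% and 23.2% after the unmasked control. Afdn, the scaffold afadin that anchors nectins to actin, was 1.17-fold higher after mXTX301 at day 4 (edgeR adjusted p = 0.0136).

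The genes whose 6 group means followed each member of the set most closely were found by the root mean square (RMS) difference between centred log2 group means over 6 groups. Predicted genes and clone names were left out, as were genes averaging under 1 CPM, which left 12176 candidates. For Cd226 these were Il18r1, a chain of the IL-18 receptor, at an RMS difference of 0.19, followed by Cxcr6 (0.25) and Gbp8 (0.29). For Tigit they were Stat4, the transcription factor downstream of the IL-12 receptor, at 0.098, then Tbc1d10c (0.14) and Rgs11 (0.15). For Cd96 they included Lax1 at 0.080 and Ikzf3 (0.12). For Pvr they were Sharpin (0.021), Angel1 (0.023) and Gyg (0.023), and for Nectin2 they were Nudt14 (0.039), Sema6c (0.047) and D17H6S53E (0.049). Pvr and Nectin2 themselves varied little between groups. Group means of all genes share the same libraries, so these distances are a description.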

How the data were processed

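Tumour RNA was isolated with a NucleoSpin kit and polyadenylated RNA was made into libraries with a TruSeq kit, per the labels' protocols; whether the libraries or the counting used strand is not given in the sources used here. The submitters' processing notes name STAR 2.7.10a and HTSeq 0.11.1, edgeR 3.34.0 under R 4.1.0, and cutadapt with FastQC 0.11.9, on the mm10 build. The deposited table holds whole-number counts for 24557 gene entries in 30 libraries. A second deposited table holds log2 values that match log2 CPM at a prior count of 2 after TMM scaling (trimmed mean of M-values); for the 5 genes, values recomputed here differed by at most 0.000176.

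All results were computed from the counts with R 4.3.3 and edgeR 4.0.16. After 5 repeated symbols were dropped, filterByExpr (minimum count 10) kept 15482 genes. Libraries were scaled by TMM, dispersions were robust, 24 residual degrees of freedom remained, and 1 mean per group was fitted over all 30 libraries, and contrasts were adjusted by Benjamini-Hochberg over all genes tested. CPM use TMM-scaled library sizes; SE and 95% intervals come from the F statistic. The procedure was tested on simulated data in which 200 genes were changed. Their counts were well above those of Cd226 in vehicle tumours, so the simulation does not cover folds from such low counts. Alternatives used DESeq2 1.42.0, limma-voom (limma 3.58.1), other size factors, no filter, a replicate term, skin markers and left-out libraries. Replicate numbers showed little pairing of libraries between groups. Over 2000 genes the mean correlation was 0.0465 for pairs with the same number and -0.00421 for pairs with other numbers. Libraries are from separate mice.

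The 5 genes and the gene lists were chosen with earlier results of these data known. Partner and nectin-family lists were counted whole, and the 4 genes of each with the smallest p for mXTX301 against vehicle at day 7 were named. Likeness was read for the 3 nearest genes, not all of which are reported here. Gene positions and merged exon lengths come from GENCODE vM21 (GRCm38), and upstream sequences from RefSeq.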

Additional observations from a re-analysis of the deposited data

Results flagged for a closer look

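In each of the 30 sets of 5 libraries (5 genes in 6 groups), the most extreme library was compared with its nearest neighbour by Dixon's ratio at a critical value of 0.71. The ratio passed it in 3 sets; by chance about 1 set in 20 would. Cd96 in mXTX301 day 4 replicate 3 was 5.95 CPM, where the other 4 tumours of the group had at most 1.54 CPM. Cd96 in mXTX301 day 7 replicate 4 was 4.73 CPM, where the others had at most 2.28 CPM. Nectin2 in vehicle day 4 replicate 5 was 43.2 CPM, where the others had at most 35.3 CPM.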

How the results depend on the processing

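The called receptor and Pvr differences from vehicle kept their direction and their call under every alternative run, except Tigit after mXTX301 at day 7 without the 12 libraries with high skin markers. Without those libraries 3 of 5 genes were called for mXTX301 at day 7, in place of 5. Fewer tumours then remained in each group, so calls and gene counts lost in that fit do not separate skin from smaller groups. Leaving out 1 library moved the number of genes called for the unmasked control at day 4 between 2 and 4 (2 with all libraries). Between days, 0 genes were called in mXTX301 tumours with all libraries, 1 without the 12 libraries, 1 without the 8, 1 by DESeq2 and 0 to 2 with 1 library left out. In unmasked control tumours 1 gene was called between days, 0 without the 12 libraries, 3 by DESeq2, by limma-voom and with the compared groups alone, and 1 to 2 with 1 library left out. In vehicle tumours 0 were called between days, 1 by DESeq2, by limma-voom and without the 8 libraries, and 0 to 1 with 1 library left out. The change of the unmasked control effect between days had 0 called, 1 by DESeq2, 1 with the skin level as a covariate and 0 to 1 with 1 library left out. Adding the replicate number as a block raised the count to 2 (Cd226 and Tigit) in unmasked control tumours and to 1 (Nectin2) in vehicle tumours between days and changed no other call. Pairs of libraries with the same number had a mean correlation of 0.0465 (lowest -0.687), beside -0.00421 for other pairs. The closest library bore the same number for 9 of 30 libraries.

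Uncalled log2 differences changed sign in these cases. For mXTX301 minus the unmasked control at day 4, Cd226 was -0.073 without the 12 libraries, -0.030 without the 8 and -0.036 to 0.57 with 1 library left out. Cd96 there was -0.42, -0.53 and -0.78 to 0.42 in the same order, and -0.015 by limma-voom, and Tigit was -0.45 to 0.18 with 1 library left out. At day 7, Cd226 was 0.36 without the 12 libraries and 0.096 without the 8. With 1 library left out, Nectin2 after mXTX301 at day 4 was -0.097 to 0.019, and for day 7 minus day 4 Tigit was -0.025 to 0.61 and Cd96 -0.050 to 1.25 in mXTX301 tumours, Pvr -0.012 to 0.069 in unmasked control tumours and Cd96 -0.045 to 0.79 in vehicle tumours. The change of the mXTX301 effect on Cd96 was 0.11 with the skin covariate, 0.73 without the 12 libraries, 0.65 without the 8, 0.24 by limma-voom and -0.50 to 0.81 with 1 library left out. The cause was not tested.

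Of all genes, 6 were called between days in vehicle tumours, 604 by DESeq2, 77 by limma-voom, 86 with the replicate block, 14 with the skin covariate, 187 without the 12 libraries, 461 without the 8, and 0 with other size factors, no filter or the compared groups alone. In unmasked control tumours 4009 were called between days, 1579 without the 8 libraries and 0 without the 12. Without the 12 libraries, 1618 genes in place of 3465 were called for the unmasked control at day 4 and 2415 in place of 6973 at day 7. The mXTX301 effect differed between days for 772 genes, 1280 and 1383 without the 12 and the 8, 1474 by DESeq2, 496 by limma-voom and 514 with the compared groups alone. The unmasked control effect differed for 798, 0 and 125 without the 12 and the 8, 1722 by DESeq2, 287 with the compared groups alone and 473 with no filter. With 1 library left out, the count between days in vehicle tumours ran from 0 (5 libraries) to 1075 (vehicle day 7 replicate 5), and each of the 10 libraries moved it by over 1.5 times. In mXTX301 tumours it was 2242, and ran from 533 (without day 4 replicate 1) to 3420 (without day 4 replicate 3); leaving out day 4 replicate 2 or 4 or day 7 replicate 4 or 5 also lowered it by over 1.5 times. The count for the mXTX301 effect ran from 200 (without mXTX301 day 7 replicate 5) to 1225 (without vehicle day 7 replicate 3), moving by over 1.5 times for 11 of 20 libraries. That for the unmasked control effect ran from 132 (without unmasked control day 7 replicate 2) to 3025 (without vehicle day 4 replicate 5), doing so for 16 of 20. The test of Cd226 between days in vehicle tumours could not be computed with the compared groups alone, where Cd226 did not pass the low-count filter. Low Cd226 counts in vehicle tumours limit the precision of its folds.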

Other observations

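Over the deviations of 30 libraries from their group means, which share library preparation and cell content, Pearson's r with Cd226 was highest for Tmem71 (0.813), Ubash3a (0.788) and Slamf6 (0.783), with Tigit for genes that include Pglyrp1 (0.869) and Icos (0.842), and with Cd96 for Spn (0.917), Il2rb (0.914) and Sh2d2a (0.904). For Pvr the highest were Slc3a2 (0.910), Nfil3 (0.901) and Maff (0.901), and for Nectin2 they were Rwdd2a (0.829), Cpped1 (0.822) and Adck2 (0.822). Of the genes named here, only Il2rb is on the T or NK cell lists. The same r with the mean level of the T cell list was 0.739 for Cd226, 0.699 for Tigit, 0.742 for Cd96, -0.298 for Pvr and 0.354 for Nectin2. With the mean level of the NK cell list it was 0.598 for Cd226, 0.702 for Tigit, 0.903 for Cd96, -0.193 for Pvr and 0.565 for Nectin2. Each r is a description with no test.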
